A study of Mus musculus with 3 samples.

Results

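The mitochondrial genome of the mouse encodes 37 transcripts, and these were described in splenic B cells of mice with allergic rhinitis. The members were the genes of the deposited table whose symbol starts with mt-, which gave 37 of 27088 genes. They comprised 13 messenger RNAs (mRNAs), 2 ribosomal RNAs (rRNAs) and 22 transfer RNAs (tRNAs). The rule used names alone and no measured value. All 37 genes had the same start, end and strand as in the GENCODE M21 annotation of the GRCm38 assembly, where they lie on chromosome MT between bases 1 and 15422.

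The study asked how SJMHE1, a peptide from the parasitic worm Schistosoma japonicum, changes the course of ovalbumin (OVA) induced allergic rhinitis. Female BALB/c mice, labelled as 13 weeks old, were given 10 µg OVA with 2 mg Al(OH)3 into the peritoneum on days 0, 7 and 14, and 100 µg OVA into the nose between days 21 and 35. The PBS group received PBS under the skin on days 0, 14 and 28, and the SJMHE1 group received 10 µg SJMHE1 on the same days, emulsified in incomplete Freund's adjuvant, which the PBS injections lacked. The peptide and this adjuvant therefore cannot be told apart. On day 36 the B cells of the spleen were sorted, and material from 3 mice was combined per group into 1 pooled library. The series also holds a Control group of normal mice, which was not analysed here. Without replicate libraries no test was possible, and each difference below compares 2 libraries and not 2 treatments. The intervals given are exact Clopper-Pearson intervals at the 95% level and cover counting error only, since reads were not counted as separate molecules.

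The summed counts were 48267168 in the PBS and 51280237 in the SJMHE1 library. The 9 B cell markers read here, which include Cd79a, Cd79b and Ms4a1, each had an FPKM (fragments per kilobase, scaled to the size of the library) of at least 1 in both libraries. Their summed FPKM was 2630.1 in the PBS and 2722 in the SJMHE1 library. The 8 T cell markers summed to 28.5 and 7.83 FPKM and were all lower in the SJMHE1 library. The 8 macrophage markers summed to 34.0 and 29.7 FPKM, with 3 lower and 5 higher in the SJMHE1 library. The 7 erythroid markers in the table summed to 151.3 and 197.6 FPKM and were all higher in the SJMHE1 library. No marker of these lists was at 0 in either library. Their part in the mitochondrial values was not tested, and in pooled cells a change in cell numbers and a change in RNA per cell cannot be told apart.

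Mitochondria keep a small circular genome that is transcribed from both strands into long precursor RNAs. The tRNAs lie between most of the mRNAs and rRNAs, and their excision at both ends releases the neighbouring transcripts. The mRNAs encode core subunits of the respiratory chain and of ATP synthase, and the rRNAs and tRNAs serve the mitochondrial ribosome that translates them. The polymerase, the processing enzymes, the ribosomal proteins and the remaining respiratory subunits are encoded in the nucleus. In B cells, oxidative phosphorylation is known to support activation and antibody secretion.

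The mitochondrial transcripts took similar shares of both libraries. They held 4.23% of the counts of the PBS library (interval 4.229% to 4.241%) and 4.29% of those of the SJMHE1 library (interval 4.280% to 4.291%). The mRNAs held 3.96% (3.952% to 3.963%) and 4.14% (4.131% to 4.142%) of the counts. The rRNAs held 0.263% (0.2618% to 0.2647%) in the PBS library and 0.138% (0.1367% to 0.1387%) in the SJMHE1 library. The tRNAs held 0.0145% (0.0142% to 0.0149%) and 0.0115% (0.0112% to 0.0118%). Thus the mRNA share was higher and the rRNA and tRNA shares were lower in the SJMHE1 library, beyond counting error. All shares depend on the total, and the nuclear rRNA gene CT010467 alone took 2.54% of it in the PBS and 0.698% in the SJMHE1 library. Shares of the mRNAs among protein-coding genes alone, which leave CT010467 out, are given at the end. Summed rRNA counts were 6.65% of summed mRNA counts in the PBS and 3.33% in the SJMHE1 library. Ribosomal RNA had been removed with biotin-labelled probes before sequencing, and the labels do not say whether the probes cover the mitochondrial rRNAs.

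**Figure D1:**
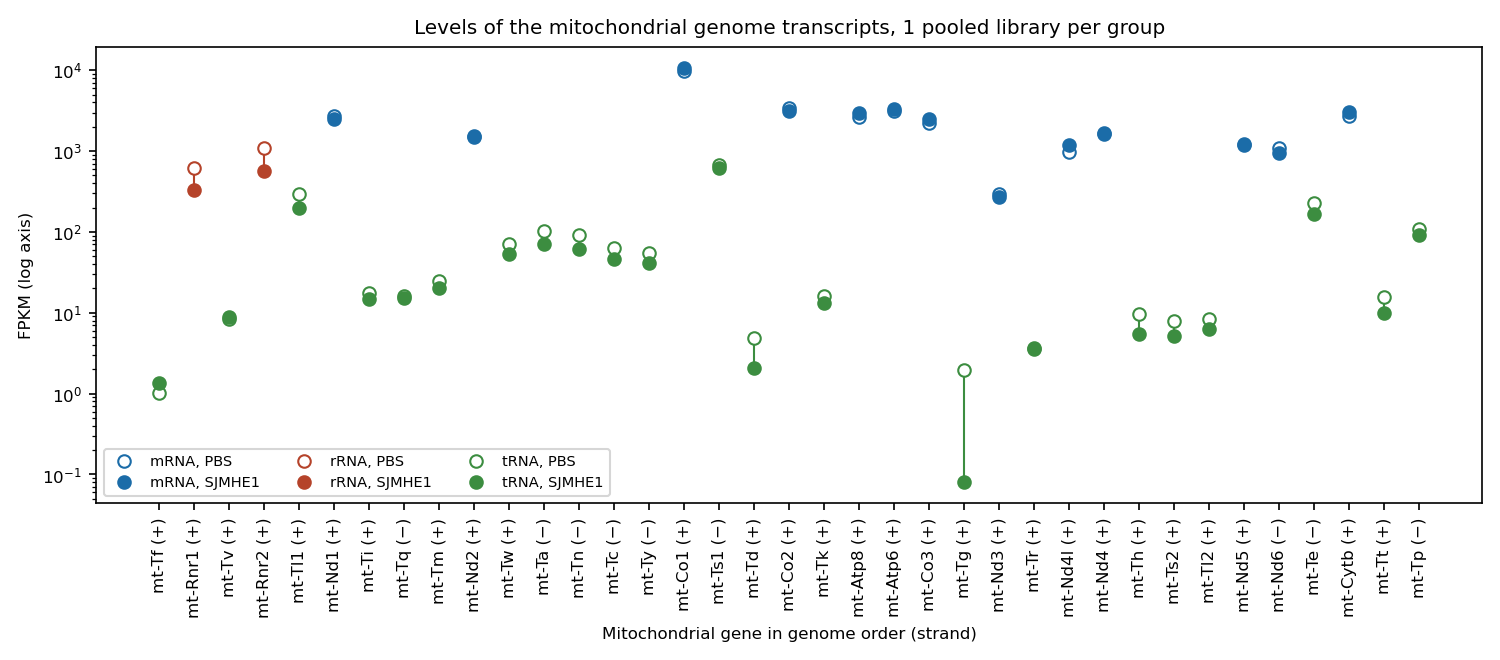
FPKM of each of the 37 mitochondrial genes (vertical log axis) in genome order with the coding strand, for the PBS library (open circles) and the SJMHE1 library (filled circles), coloured by class, with 1 pooled library per group. The mRNAs lie between 269.05 and 10752.06 FPKM, the 2 rRNAs are lower in the SJMHE1 library, and the tRNAs spread from 0.08 to 676.51 FPKM.

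The levels of the 13 mRNAs were compared per length within each library. The mRNA of mt-Co1, the catalytic subunit of cytochrome c oxidase (complex IV), had the highest level, with 9931 FPKM in the PBS library and 10752 FPKM in the SJMHE1 library, and ranked 3rd and 1st among all genes of the table. mt-Co2, which holds the copper centre that accepts electrons from cytochrome c, had 3431 and 3173 FPKM. mt-Co3, the third core subunit of complex IV, had 2228 and 2497 FPKM. The 3 genes of complex IV together held 52.2% and 54.8% of all mitochondrial counts.

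The ATP synthase (complex V) subunit mt-Atp6, part of its proton channel, had 3162 FPKM in the PBS library and 3289 FPKM in the SJMHE1 library. Its neighbour mt-Atp8 had 2606 and 2938 FPKM. Both lie on 1 shared mRNA, and their reading frames overlap by 43 bases. The overlap is shown because reads within it belong to both genes, with the start codon of mt-Atp6 and the stop codon of mt-Atp8 in capitals (GRCm38, chromosome MT, plus strand).
mt-Atp8/mt-Atp6 overlap, MT:7927-7969: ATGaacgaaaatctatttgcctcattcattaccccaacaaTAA
Per length, mt-Atp6 exceeded mt-Atp8 by 1.21-fold in the PBS library and 1.12-fold in the SJMHE1 library. With the counts of the near-identical nuclear copy of mt-Atp6 added (the copies are described further on), these values were 2.48-fold and 2.29-fold. No copy of mt-Atp8 was found among annotated transcripts, and other nuclear sequence was not searched, so counts were added to mt-Atp6 alone. The gene of complex III, mt-Cytb (cytochrome b), had 2730 and 3071 FPKM.

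The 7 genes of complex I (NADH dehydrogenase) spanned the widest range of the mRNAs outside mt-Co1. mt-Nd1, a membrane subunit next to the quinone site, had 2743 FPKM in the PBS library and 2474 FPKM in the SJMHE1 library. The proton-pumping subunits mt-Nd2, mt-Nd4 and mt-Nd5 had 1477, 1638 and 1195 FPKM in the PBS library and 1532, 1654 and 1226 FPKM in the SJMHE1 library. mt-Nd4l, which shares an mRNA with mt-Nd4 and overlaps it by 7 bases, had 976 and 1181 FPKM. Thus mt-Nd4 exceeded mt-Nd4l by 1.68-fold per length in the PBS library and 1.40-fold in the SJMHE1 library. With the nuclear copies of both genes added, the level of mt-Nd4 was 1.16 times that of mt-Nd4l in the PBS library. In the SJMHE1 library it was 0.996 times, so that both levels were nearly equal. mt-Nd6 is the only mRNA of the minus strand, and its sequence held 28.1% G where the other mRNAs held 5.88% to 16.1%. It had 1091 and 953 FPKM, and it overlaps the end of mt-Nd5, which is read from the other strand, by 14 bases.

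The lowest mRNA in both libraries was mt-Nd3, a small membrane subunit of complex I, with 292 FPKM in the PBS library and 269 FPKM in the SJMHE1 library. It lies downstream of mt-Co3 on the same strand with only the tRNA mt-Tg between them, yet mt-Co3 exceeded it 7.62-fold and 9.28-fold per length. mt-Co1 exceeded mt-Nd3 34.0-fold in the PBS library and 39.96-fold in the SJMHE1 library. With the nuclear copies added, mt-Co1 exceeded mt-Nd3 18.1-fold and 21.2-fold, and mt-Co3 exceeded it 7.39-fold and 9.06-fold. In the order of FPKM, 5 genes held the same place in both libraries, namely mt-Co1, mt-Nd4, mt-Nd2, mt-Nd5 and mt-Nd3. The others moved by 1 place, except mt-Nd1, which was the fourth in the PBS library and the seventh in the SJMHE1 library. The places around mt-Nd1 are close, since mt-Nd1 and mt-Cytb had 2743 and 2730 FPKM in the PBS library.

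The libraries were compared by the log2 ratio of FPKM, the SJMHE1 value over the PBS value. Of the table, 12433 genes reached 1 FPKM in either library and were above 0 in the PBS and the SJMHE1 library. All 37 mitochondrial genes passed this filter. Of them, 2 (5.41%) had a log2 ratio past 1 in either direction, and 6% of all genes compared did. Both were tRNAs lower in the SJMHE1 library, a direction taken by 3.57% of all genes. The median log2 ratio of all genes compared was -0.01, with 51.9% below 0. Counting intervals lay wholly below 0 for 17 of the 37 genes and wholly above 0 for 9, while these shares over all genes were 34.4% and 30.9%, so an interval away from 0 was common in these deep libraries.

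**Figure D2:**
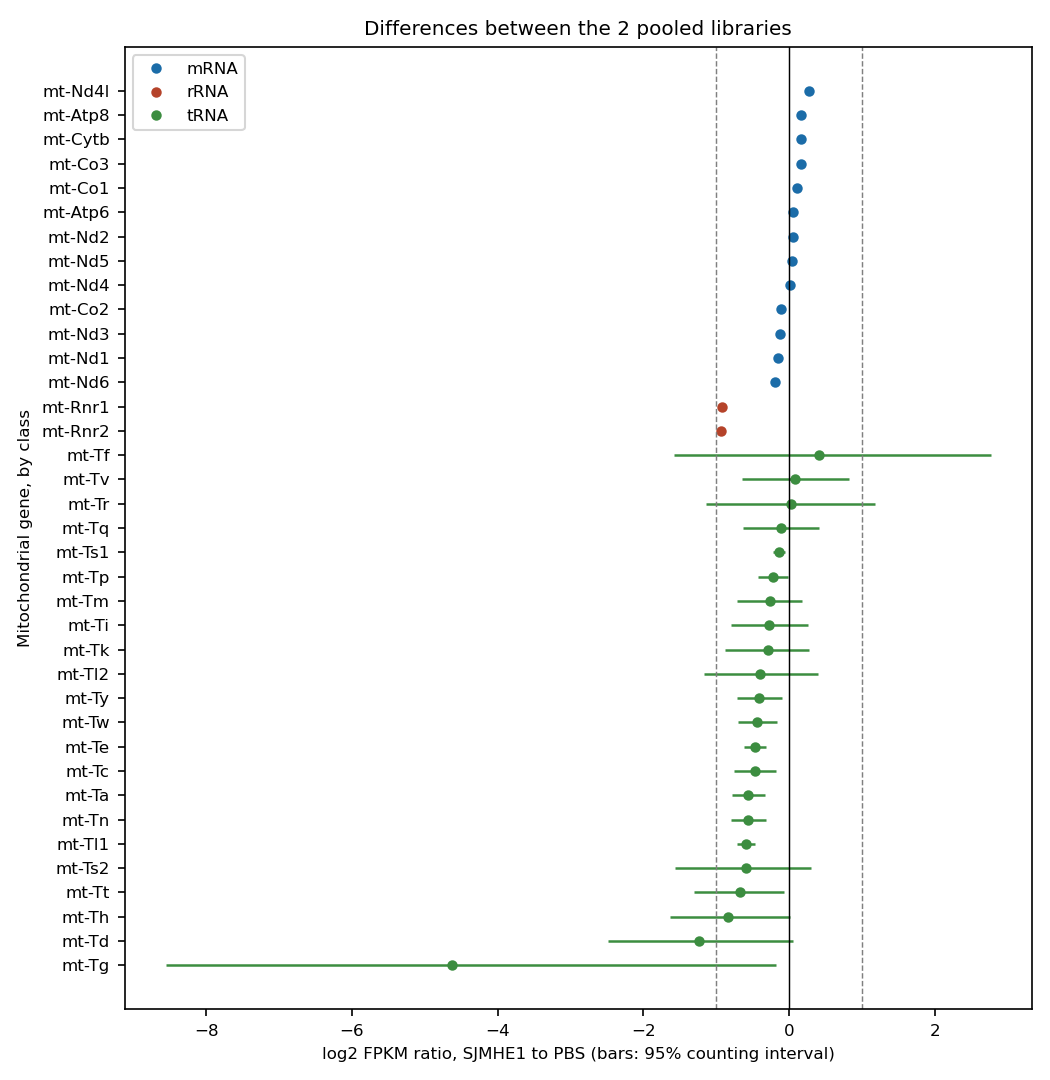
Log2 FPKM ratio, SJMHE1 to PBS (horizontal axis), of each mitochondrial gene (points) with its 95% counting interval (bars), sorted within the mRNAs, rRNAs and tRNAs, with dashed lines at -1 and 1. The mRNAs lie from -0.20 to 0.27 with narrow bars, both rRNAs lie at -0.91 and -0.94, and 19 of 22 tRNAs lie below 0, many with wide bars.

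The mRNAs differed little between the libraries. Their median log2 ratio was 0.05, with 9 above 0 and 4 below, and no gene was past the threshold. The highest ratio was that of mt-Nd4l, with 15917 counts in the PBS library and 20374 counts in the SJMHE1 library (log2 ratio 0.27, interval 0.24 to 0.30). mt-Atp8, mt-Cytb and mt-Co3 followed with log2 ratios of 0.17, 0.17 and 0.16, and mt-Co1 and mt-Atp6 had 0.11 and 0.06. The log2 ratios of mt-Nd2, mt-Nd5 and mt-Nd4 were 0.05, 0.04 and 0.01. Below 0 were mt-Co2 at -0.11, mt-Nd3 at -0.12 and mt-Nd1 at -0.15. The lowest was the minus-strand gene mt-Nd6, with 31073 counts in the PBS and 28727 in the SJMHE1 library (log2 ratio -0.20, interval -0.22 to -0.17). All 13 counting intervals left out 0, since the smallest count was 5441, but the spread between mice is not known from pooled libraries. Complex I had 4 genes above and 3 below 0 (median 0.01), complex IV had 2 above and 1 below (median 0.11), and the genes of complexes III and V were all above 0.

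The 2 rRNAs were lower in the SJMHE1 library. mt-Rnr1, the RNA of the small mitochondrial ribosomal subunit, lies at MT:70-1024 and had 618 FPKM (32392 counts) in the PBS library and 328 FPKM (18201 counts) in the SJMHE1 library. Its log2 ratio was -0.91 (interval -0.94 to -0.89). mt-Rnr2, the RNA of the large subunit at MT:1094-2675, had 1090 FPKM (94686 counts) and 570 FPKM (52422 counts), with a log2 ratio of -0.94 (interval -0.95 to -0.92). Both were about 1.90-fold higher in the PBS library at their median and stayed short of the threshold. Only 4.27% of all genes compared had a ratio at or below that of mt-Rnr1. Within each library the RNAs kept their proportion, with mt-Rnr2 exceeding mt-Rnr1 1.76-fold and 1.74-fold per length.

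Nuclear rRNAs and other structural RNAs are given beside this difference. The table holds 71 nuclear genes typed as rRNA, of which 7 were compared and 5 had a ratio below 0. The most abundant, CT010467 (ENSMUSG00000106106, GRCm38, chr17:39846353-39848201), had 12074 FPKM in the PBS library and 3333 FPKM in the SJMHE1 library. It took 2.54% and 0.698% of the counts (log2 ratio -1.86, interval -1.86 to -1.85). The other 6 had at most 38 counts, with 4 below and 2 above 0. A further entry of the symbol CT010467, typed as a pseudogene, had 11343 counts in the PBS and 5762 in the SJMHE1 library (log2 ratio -1.06). The structural RNAs of the signal recognition particle, Rn7s1 and Rn7s2, had log2 ratios of -1.19 and -1.28, and Rn7sk, which holds back the elongation factor P-TEFb, had -0.78. These 3 had between 125 and 347 counts and were chosen after their values were seen. Lars2, a nuclear gene for a mitochondrial enzyme, held 0.184% of the counts of the PBS library and 0.0399% of those of the SJMHE1 library (log2 ratio -2.20), and it too was chosen after its values were seen. CT010467 was thus lower together with both mitochondrial rRNAs, and the part of rRNA depletion in this was not tested.

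The tRNAs were the class with the fewest counts. Mitochondrial tRNAs are 59 to 75 bases long here, which is shorter than the library fragments of 100 to 300 bp that the labels give. Whether the counts come from free tRNAs or from precursors that still hold a tRNA was not tested. The median mRNA exceeded the median tRNA 131-fold per length in the PBS library and 166-fold in the SJMHE1 library. In each library 13 of the 22 tRNAs had fewer than 100 counts. The sequences of the tRNAs with the highest and the lowest levels and of those past the threshold are shown 5′ to 3′ as DNA letters of the gene's own strand, with the anticodon in capitals (GENCODE M21, GRCm38).
mt-Ts1, MT:6870-6938, minus strand: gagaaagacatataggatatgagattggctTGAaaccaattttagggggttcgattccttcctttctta
mt-Tl1, MT:2676-2750, plus strand: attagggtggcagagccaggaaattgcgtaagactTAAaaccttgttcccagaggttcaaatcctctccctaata
mt-Te, MT:14071-14139, minus strand: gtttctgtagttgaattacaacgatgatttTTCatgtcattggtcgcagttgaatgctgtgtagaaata
mt-Td, MT:6942-7011, plus strand: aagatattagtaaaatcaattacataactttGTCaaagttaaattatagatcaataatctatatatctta
mt-Tr, MT:9808-9875, plus strand: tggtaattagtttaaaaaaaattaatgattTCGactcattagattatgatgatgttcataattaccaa
mt-Tg, MT:9391-9458, plus strand: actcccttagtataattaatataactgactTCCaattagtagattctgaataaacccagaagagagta
mt-Tf, MT:1-68, plus strand: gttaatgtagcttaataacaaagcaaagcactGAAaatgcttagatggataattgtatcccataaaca

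The highest tRNA was mt-Ts1, which carries serine, with 677 FPKM (2563 counts) in the PBS library and 617 FPKM (2475 counts) in the SJMHE1 library. It is read from the minus strand and overlaps the end of mt-Co1, on the plus strand, by 3 bases. The sources used here do not state whether the counting used strand, so that reads of its own and of the opposite strand cannot be told apart. mt-Tl1, the leucine tRNA between mt-Rnr2 and mt-Nd1, had 298 FPKM (1229 counts) and 199 FPKM (867 counts). mt-Te, the glutamate tRNA beside mt-Nd6, had 231 FPKM (875 counts) and 167 FPKM (670 counts). At the low end, mt-Tf (phenylalanine), the first gene of the reference, had 1.02 FPKM (4 counts) and 1.36 FPKM (6 counts). mt-Tr (arginine) had 3.54 FPKM (14 counts) and 3.62 FPKM (15 counts). The GC content of the 7 tRNAs shown ranged from 17.1% in mt-Td to 44.0% in mt-Tl1.

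The 8 tRNAs of the minus strand had higher levels than the 14 of the plus strand. Their median was 97.2 FPKM in the PBS library and 66.0 FPKM in the SJMHE1 library, while that of the plus strand was 9.02 and 7.62 FPKM. This is 10.8-fold and 8.67-fold, and the ranges overlap, from 16.3 to 677 FPKM on the minus strand and from 1.02 to 298 FPKM on the plus strand of the PBS library. Each minus-strand tRNA gene lies opposite the plus-strand precursor, which carries 12 of the 13 mRNAs, so the strand limit given for mt-Ts1 applies to all 8.

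Between the libraries, 19 of 22 tRNAs had a ratio below 0 and 3 had one above, with a median log2 ratio of -0.42. The counting interval lay below 0 for 11 tRNAs and included 0 for the other 11. Of the 8 minus-strand tRNAs, 8 were below 0 (median -0.44), and of the 14 plus-strand tRNAs, 11 were below 0 (median -0.41). The 9 tRNAs with at least 100 counts in both libraries were those with the most counts. They are named after their values were seen as mt-Tl1, mt-Tw, mt-Ta, mt-Tn, mt-Tc, mt-Ty, mt-Ts1, mt-Te and mt-Tp. All of these except mt-Tl1 and mt-Tw are read from the minus strand, and the strand limit given above applies to those. All 9 were lower in the SJMHE1 library with intervals below 0, and their median log2 ratio was -0.47. They ranged from -0.59 in mt-Tl1 (interval -0.71 to -0.46) to -0.13 in mt-Ts1 (interval -0.21 to -0.05).

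Past the threshold were mt-Tg and mt-Td, both with few counts. mt-Td, the aspartate tRNA, had 4.86 FPKM (19 counts) in the PBS library and 2.07 FPKM (9 counts) in the SJMHE1 library, with a log2 ratio of -1.23 and an interval of -2.49 to 0.05 that includes 0. mt-Tg, the glycine tRNA, had 1.97 FPKM (8 counts) and 0.08 FPKM (1 count). Its log2 ratio of -4.62 has a counting interval of -8.55 to -0.18, and the FPKM of the SJMHE1 library corresponds to 0.316 of a read, so the size of this difference is not known. The highest tRNA ratio was that of mt-Tf at 0.42, with an interval of -1.57 to 2.77.

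Short RNAs encoded in the nucleus had medians near 0 with a wide spread. Outside the mitochondrial genome, 211 genes of at most 100 bases were compared, of which 53.1% had a ratio below 0 (median log2 ratio -0.05). Of these, 42 were past the threshold on the lower side and 29 on the higher side, together 33.6%. The 17 of them with at least 100 counts in both libraries had a median of -0.01. The median was 0.04 for 130 small nucleolar RNAs, 0.01 for 59 small nuclear RNAs and -0.01 for 138 microRNAs, of which 44, 30 and 49 were past the threshold.

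Copies of mitochondrial sequence in the nuclear genome limit how well the mRNA levels are known. In the GENCODE M21 transcripts, 12 nuclear genes of the table share at least 1 identical stretch of 50 bases with 9 of the mitochondrial genes. Of these, 7 lie side by side on the minus strand of chromosome 1 (GRCm38, chr1:24611535-24616197), and they match mt-Co1, mt-Co2, mt-Atp6, mt-Co3, mt-Nd3, mt-Nd4l and mt-Nd4. Gm28661 shares 99.5% of the 50-base stretches of mt-Co2, and it had 127182 counts in the PBS and 124752 in the SJMHE1 library, where mt-Co2 had 128822 and 126086. Gm28437, the copy of mt-Co3, had 93802 and 113053 counts beside the 95880 and 113753 counts of mt-Co3. Gm10925, the copy of mt-Atp6, had 123604 and 136523 counts beside 118207 and 130151.

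The small complex I genes showed the same near-equal split. Gm10222 had 15991 and 20397 counts beside the 15917 and 20374 of mt-Nd4l. Gm28438, the copy of mt-Nd3, had 5814 and 5665 counts beside 5584 and 5441. Over these 5 nearly complete copies, the count of the copy was between 97.8% and 104.9% of that of the mitochondrial gene. Of them, 4 had 0 differing bases over the length of the copy, and Gm28438 had 1. This base is shown in capitals, as T3C, with positions counted from 1 at the first base of mt-Nd3 and the base of mt-Nd3 first.
mt-Nd3, bases 1 to 23: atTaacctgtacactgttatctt
Gm28438, the same stretch: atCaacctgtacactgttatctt
The counts of these 5 mitochondrial genes and of their copies are therefore uncertain, since identical reads cannot be placed.

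**Figure D3:**
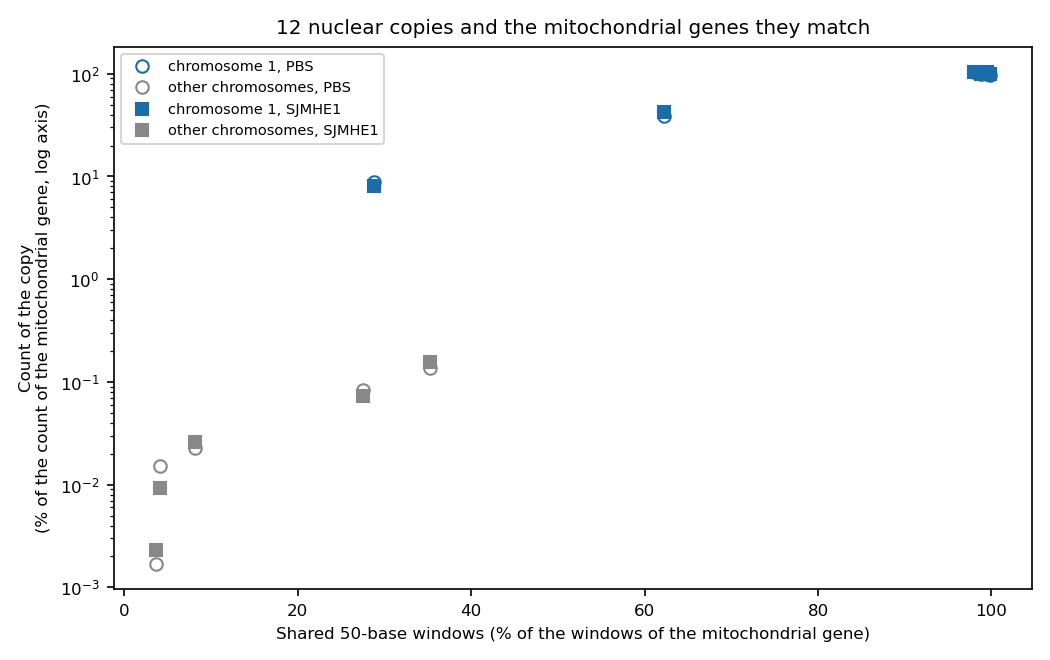
Count of each of 12 nuclear copies as a percentage of the count of the mitochondrial gene it matches (vertical log axis) against the percentage of the 50-base windows of the mitochondrial gene that it shares (horizontal axis), for the PBS library (open circles) and the SJMHE1 library (filled squares). The 7 copies on chromosome 1 (blue) lie between 8.05% and 104.9%, and the 5 on other chromosomes (grey) lie below 0.2%.

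Gm28439 matched 62.2% of mt-Nd4, with 0 differing bases over its 876 bases, and had 48166 and 56035 counts. Gm29216 matched 28.7% of mt-Co1, with 6 differing bases over 492, and had 74330 and 77694 counts. The parts of mt-Nd4 and mt-Co1 that these copies match share the uncertainty given above. The 5 copies on chromosomes 2, 4 and 13, which differ from the mitochondrial sequence at 16 to 79 bases, held 927 counts in all in the PBS and 947 in the SJMHE1 library. The chromosome 1 copies took 1.01% and 1.04% of the counts, and with them the mitochondrial share was 5.25% and 5.33%. When each copy was added to its gene per length, mt-Co3 moved from the seventh to the fourth place in the PBS library and mt-Nd4l from the twelfth to the ninth. In the SJMHE1 library mt-Co3 moved from the sixth to the fourth and mt-Nd4l from the eleventh to the eighth, just before mt-Nd4. mt-Co1 stayed the first and mt-Nd3 the last in both libraries. The log2 ratios of the 5 nearly complete copies, from -0.12 in Gm28438 to 0.27 in Gm10222, lay within 0.0227 of those of their mitochondrial genes. The rRNAs and tRNAs shared no such stretch with a nuclear gene of the table. Only annotated transcripts were searched, so any copy of a tRNA or of mt-Atp8 between the chromosome 1 copies would have been missed.

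Nuclear genes whose proteins act on mitochondrial RNA were read from lists. The 25 genes of mitochondrial DNA replication and transcription had a median log2 ratio of 0.22, with 20 above and 5 below 0 and 0 past the threshold. The highest was Tefm, the mitochondrial transcription elongation factor, with 1.76 FPKM in the PBS library and 3.33 FPKM in the SJMHE1 library (log2 ratio 0.92). The lowest was Tfb2m, the initiation factor that opens the promoter, with 9.92 and 7.98 FPKM (log2 ratio -0.31). The 34 genes of mitochondrial RNA processing and stability had a median of 0.05, with 20 above and 14 below 0 and 0 past the threshold. They ranged from -0.63 in Rpusd3 to 0.56 in Fastkd1.

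The mitochondrial aminoacyl-tRNA synthetases charge the tRNAs with their amino acids. Of 17 genes compared, 9 were above and 8 below 0 (median 0.03), and 1 was past the threshold. This was Lars2, the leucine enzyme, given above beside the rRNAs. It had 146 FPKM (88686 counts) in the PBS library and 31.7 FPKM (20448 counts) in the SJMHE1 library (log2 ratio -2.20). Whether the counts of Lars2 come from the mRNA of the enzyme was not tested. The next most abundant synthetase of the PBS library, Hars2, the histidine enzyme, had 11.6 and 11.4 FPKM (log2 ratio -0.02) and was chosen after its values were seen. The highest was Ears2, the glutamate enzyme, with 2.92 and 5.01 FPKM (log2 ratio 0.78). The 78 mitochondrial ribosomal protein genes had a median of -0.07, with 30 above and 48 below 0. Mrps6 was past the threshold with 1.45 and 3.07 FPKM (log2 ratio 1.08), and the lowest was Mrpl27 at -0.51. Neither the proteins of the mitochondrial ribosome nor the synthetases other than Lars2 had values as low as those of the rRNAs.

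The nuclear genes of the respiratory complexes were taken by the start of their symbol, which includes some assembly factors. This rule also placed Cox5b-ps, whose symbol marks a pseudogene, among the complex IV genes (log2 ratio -0.60). For complex I, 18 of 44 genes compared were above and 26 below 0 (median -0.07). For complex III, 2 of 9 were above 0 (median -0.17), for complex IV 1 of 13 (median -0.19), and for complex V 2 of 17 (median -0.19). None of these 83 genes was past the threshold, and they ranged from -0.97 in Atp5g1, a ring subunit of ATP synthase listed at 1.63 and 0.83 FPKM, to 0.72 in Ndufaf6, a complex I assembly factor. Side by side, the mitochondrial mRNAs of complexes III (1 gene), IV (3 genes) and V (2 genes) had medians of 0.17, 0.11 and 0.11, above 0. The nuclear genes of the same complexes had medians below 0. Within complex IV, mt-Co2 was below 0 at -0.11. The 7 mitochondrial genes of complex I had a median of 0.01, with 3 below 0. These differences between the genomes were not tested.

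**Figure D4:**
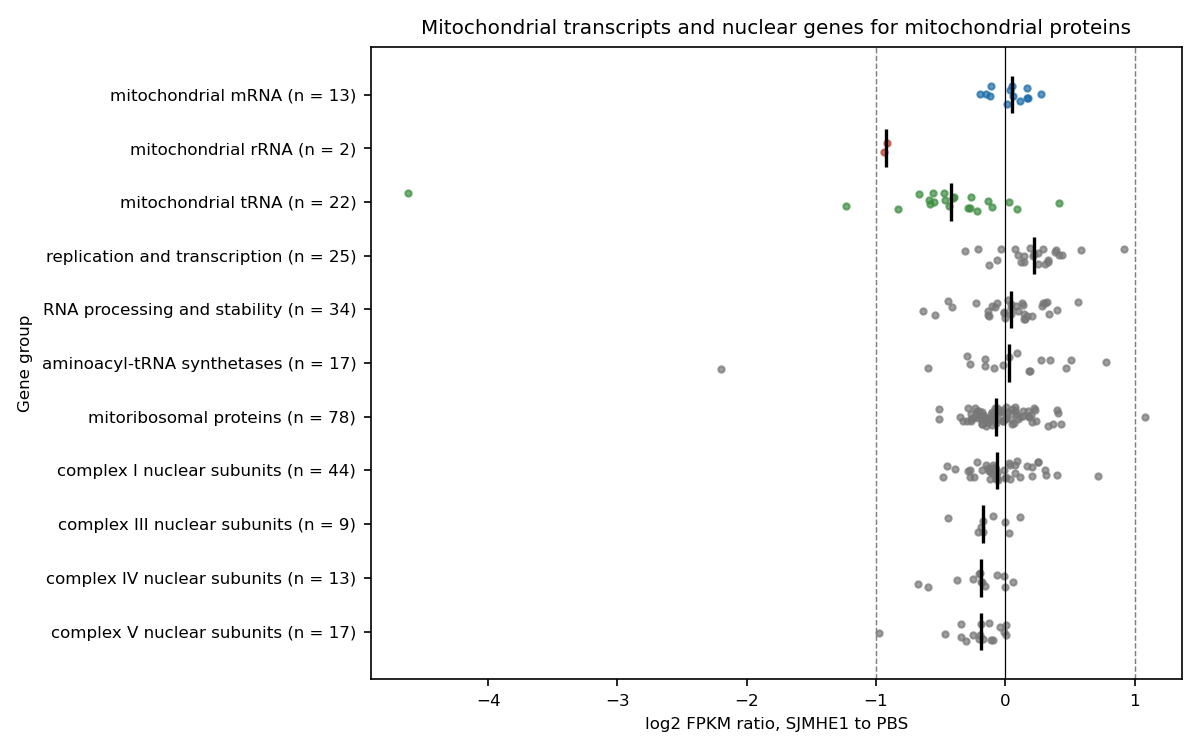
Log2 FPKM ratio, SJMHE1 to PBS (horizontal axis), of the mitochondrial mRNAs, rRNAs and tRNAs (coloured points) and of nuclear genes for mitochondrial proteins by list (grey points), with the median of each group as a black bar and dashed lines at -1 and 1. The rRNAs and tRNAs have medians of -0.92 and -0.42, and the medians of the nuclear lists lie between -0.19 and 0.22.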

How the data were processed

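RNA of sorted spleen B cells was depleted of rRNA, randomly primed and sequenced by the authors. Per the labels, bcl2fastq 2.0, HISAT2, StringTie, DESeq2, limma and the build mm10 are named in the submitters' processing notes, and the use of strand is not stated. The table deposited by the authors holds whole-number counts and FPKM values per gene, rounded to 2 decimals. The deposited counts were up to 0.846 above the fragments that FPKM and gene length imply for 20 low mitochondrial genes. Value columns whose name matched no sample (2 columns) were not used, so no comparison with the Control group was made.

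Log2 ratios of FPKM, without a pseudocount, were computed over the whole table with a threshold of 1. Counts gave intervals at the 95% level. Count tests need replicates and could not be fitted. All mRNAs and rRNAs were named, with the tRNAs of the 3 highest and 3 lowest PBS levels, the extreme ratios and those past the threshold, and the extremes of each nuclear list. The members and lists were chosen with earlier results of these data known. Scripts ran in Python 3.11.15 (scipy 1.17.1, pandas 2.3.3, numpy 2.4.6), with edgeR 4.0.16 for scaling factors only. One B cell marker is not reported here. The calculations were tested on simulated data.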

Additional observations from a re-analysis of the deposited data

How the results depend on the processing

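The signs of the 13 mRNA and 2 rRNA ratios were the same in all 10 alternatives, with 9 mRNAs above 0 and both rRNAs below. Under every alternative 3 tRNAs were above 0. The pseudocounts and the filters could not change a sign. The other alternatives shift the ratios of all genes by nearly the same amount, except where counts are few. Their shift of the median of all genes was at most 0.096, so only ratios near 0 could change sign. The median log2 ratio of the mRNAs and of the rRNAs was 0.14 and -0.84 after rescaling to a sum of 1000000 (TPM), 0.079 and -0.90 with TMM factors, 0.10 and -0.88 with median-of-ratios factors, and 0.15 and -0.83 after rescaling without the mitochondrial transcripts. The number of transcripts past the threshold was 1 instead of 2 with a pseudocount of 1. It was also 1 when both libraries had to reach 1 FPKM, which drops mt-Tg. The share of all genes compared fell too, from 6% to 1.98% with that pseudocount and to 2.22% with that filter. As shares of summed FPKM, the PBS and SJMHE1 libraries gave 11.2% and 12.01% for all 37 transcripts, 10.2% and 11.3% for mRNAs, 0.518% and 0.289% for rRNAs, and 0.556% and 0.467% for tRNAs. Among protein-coding genes alone the mRNAs held 4.38% and 4.47% of counts. Without the 2 mitochondrial rRNAs in the total, which still held CT010467, they had 3.97% and 4.14%. Adding the chromosome 1 copies, chosen after seeing the data, gave 5.25% and 5.33% and changed the place of 8 and 7 mRNAs in the order of levels. It brought mt-Nd4 close to the level of mt-Nd4l in the SJMHE1 library, from 1.40 to 0.996 times per length. Counts per kilobase changed no place, which was fixed in advance, since FPKM within a library follows counts per length. No paired analysis was possible because the 2 groups hold 1 pooled library each and nothing was tested. The planned comparisons with the Control group were not run, and pooling leaves the spread between mice unknown.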
